A study of Mus musculus with 745 samples.

Results

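Among the wells sequenced as single brain endothelial cells, 73 carried transcripts of pericytes, the cells that wrap around brain capillaries, and 672 did not by the same rule. They were selected on 6 pericyte markers, Vtn, Rgs5, Kcnj8, Pdgfrb, Abcc9 and Higd1b. A well was taken where at least 2 of the 6 reached 50 CPM, a unit (per-million counts) that scales the counts of every well to the same total. The 73 wells make up 9.80% of all wells (95% exact Clopper-Pearson interval 7.76 to 12.2%). They were split by the level of Vtn into 41 wells at 500 CPM or more, called strong below, and 32 wells under 500 CPM, called weak. Every one of the 73 also carried endothelial transcripts, so the wells are described as mixtures of pericyte and endothelial RNA and not as pericytes. The files do not record how many cells entered a well, so a whole pericyte, a piece of one and free RNA cannot be told apart.

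The study, titled for the passage of blood proteins into the brain and its decline with age, profiled endothelial cells of mouse brain. All wells used here came from mice 3 months old, and no genotype or treatment is labelled. The tissue was dissociated with a neural dissociation kit and the cells were sorted by flow cytometry, with gate markers not given in the sources used here. The well names start with Young1, Young2 or AY_Y3, which gives 3 sets whose origin (animals, pooled animals or plates) no label states. Strong wells numbered 13 in Young1, 14 in Young2 and 14 in AY_Y3, and weak wells 9, 15 and 8. Together they made up 9.78%, 11.2% and 8.40% of the 3 sets, with 95% exact intervals of 6.23 to 14.4%, 7.66 to 15.7% and 5.34 to 12.4% that overlap.

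Pericytes sit inside the capillary basement membrane, in direct contact with endothelial cells, and are recruited by endothelial PDGF-B acting on the pericyte receptor PDGFRβ. They take part in the formation and upkeep of the blood-brain barrier, influence capillary flow, and secrete matrix proteins. Vtn encodes vitronectin, a secreted adhesion protein. Rgs5 encodes a regulator of G-protein signalling. Kcnj8 and Abcc9 encode the pore and the sulphonylurea receptor subunit of an ATP-sensitive potassium channel, and Higd1b a small hypoxia-related membrane protein.

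Upstream sequences are shown for 4 genes whose transcripts were high together in the strong wells and at or near 0 in the others: Vtn, the channel genes Kcnj8 and Abcc9, which lie next to each other on chromosome 6, and Atp13a5, a P-type ATPase gene that rose in the test below. Each line gives the 250 bases before the annotated start, 5′ to 3′ on the gene's strand, from RefSeq (build GRCm38.p6). Capitals mark matches, on either strand, to TGGGAA, the core bound by RBPJ, the DNA-binding partner of Notch receptors, and to TAAACA, a forkhead core.
Vtn, chr11:78498870-78499119, plus strand: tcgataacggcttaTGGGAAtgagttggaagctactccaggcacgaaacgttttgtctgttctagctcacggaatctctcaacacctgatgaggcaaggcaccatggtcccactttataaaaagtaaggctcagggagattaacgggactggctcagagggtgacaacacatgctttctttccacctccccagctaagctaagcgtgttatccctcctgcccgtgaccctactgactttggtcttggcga
Kcnj8, chr6:142571615-142571864, minus strand: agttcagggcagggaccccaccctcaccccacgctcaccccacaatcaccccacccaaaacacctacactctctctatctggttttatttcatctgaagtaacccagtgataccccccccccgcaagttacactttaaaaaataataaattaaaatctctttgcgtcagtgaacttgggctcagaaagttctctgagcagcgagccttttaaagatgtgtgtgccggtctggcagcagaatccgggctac
Abcc9, chr6:142702275-142702524, minus strand: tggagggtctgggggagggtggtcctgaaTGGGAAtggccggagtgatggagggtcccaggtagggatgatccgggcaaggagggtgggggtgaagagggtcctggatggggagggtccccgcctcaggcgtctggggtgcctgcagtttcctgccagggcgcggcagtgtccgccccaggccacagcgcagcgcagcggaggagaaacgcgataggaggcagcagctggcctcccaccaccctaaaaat
Atp13a5, chr16:29378733-29378982, minus strand: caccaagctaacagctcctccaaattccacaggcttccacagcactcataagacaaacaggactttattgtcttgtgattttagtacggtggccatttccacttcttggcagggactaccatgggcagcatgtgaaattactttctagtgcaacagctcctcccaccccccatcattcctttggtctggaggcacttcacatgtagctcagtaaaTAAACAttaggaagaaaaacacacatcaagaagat
The TGGGAA match of Vtn began at base -236 from the start and that of Abcc9 at -221, and the TAAACA match of Atp13a5 at -35. Kcnj8 held neither. Neither CCCNNGGG, an EBF core, nor TGANTCA, an AP-1 core, was found in the 4 windows on either strand. Among 32851 windows of the same length, 21.6% held TGGGAA, 12.03% TAAACA, 11.8% CCCNNGGG and 6.75% TGANTCA, and a match is a description of the letters only.

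Depth and complexity were compared first, since a well with more counts passes any limit on detection more easily. Total counts per well ran from 52819 to 2421434, with medians of 698156 in strong, 734850 in weak and 600090 in other wells. After each well was thinned to 50000 counts, which left out no well, the median number of genes detected was 2214 in strong, 2200.5 in weak and 1673.5 in other wells. Before thinning these medians were 2973, 2793.5 and 2154.5. These medians pool the wells of all sets. In the pooled wells both kinds of pericyte-carrying well thus had a higher median of detected genes at equal depth. Differences between the sets were not taken out, and the part of this in the results was not tested. No pair of wells had identical counts.

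The 6 markers chose the wells, so their levels are given as a description. In the text below a level per set is the CPM of all wells of a class summed within that set, in the order Young1, Young2, AY_Y3. Vtn stood at 7603, 8774 and 8512 CPM in strong wells, at 227.8, 162.5 and 74.1 in weak wells and at 5.10, 0.318 and 3.90 in the others. Rgs5 stood at 2812, 4548 and 3946 CPM in strong wells and at 2686, 1743 and 3315 in weak wells. The strong and weak ranges of Rgs5 overlapped, and both lay above the 268, 164.6 and 178.9 CPM of the other wells. Rgs5 was also the marker that the other wells carried most often: 18.2% of the 672 reached 50 CPM, against 5 wells for Vtn, 2 for Higd1b, 1 for Abcc9 and none for Kcnj8 or Pdgfrb.

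**Figure D1:**
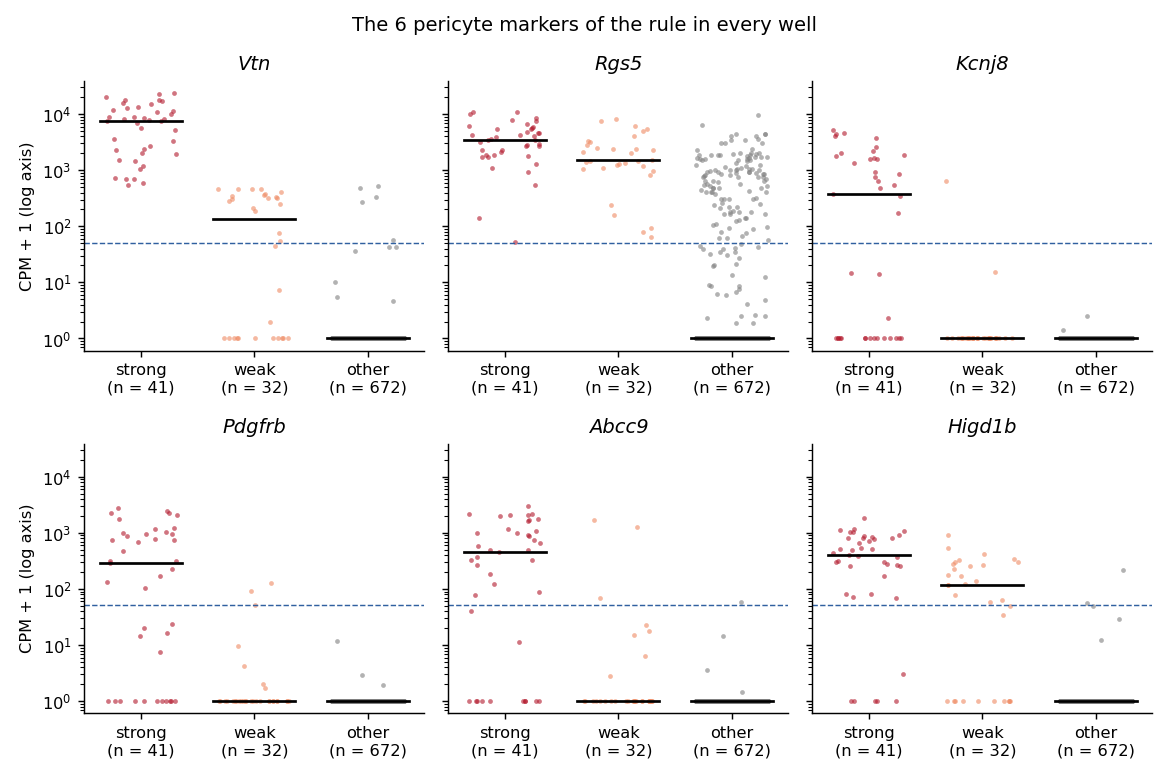
CPM + 1 (log axis) of the 6 markers in each well, by class. Points are wells, black bars are medians and the dashed line is 50 CPM. Vtn, Kcnj8, Pdgfrb and Abcc9 are high in many strong wells and mostly at 0 in the other wells, while Rgs5 spreads over all 3 classes.

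The remaining 4 markers set the strong wells further apart. Kcnj8 reached 1282, 876 and 1014 CPM in strong wells, with 2.68, 45.8 and 0 CPM in weak wells. Pdgfrb, the receptor for endothelial PDGF-B, reached 549, 778 and 674 CPM in strong wells against 2.27, 26.02 and 0 in weak wells. Abcc9 stood at 383, 1075 and 656 CPM in strong wells and at 31.9, 9.37 and 236.5 in weak wells. For these 3 genes, and for Higd1b, the strong and weak values did not overlap. Higd1b had 360.1, 579 and 602 CPM in strong and 230.8, 142.3 and 98.2 in weak wells.

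Within the strong wells 18 of 41 carried all 6 markers at 50 CPM or more, 6 carried 5, 9 carried 4, 4 carried 3 and 4 carried only Vtn and Rgs5. Of the 32 weak wells 20 carried 2 markers, 11 carried 3 and 1 carried 4. The commonest weak combinations were Rgs5 with Higd1b in 10 wells, Vtn with Rgs5 in 8 and all 3 of these in 7, while Kcnj8 reached 50 CPM in 1 weak well. Per well, Vtn in strong wells ran from 541 through a median of 7632 to 23547 CPM. Near the limits of the rule, the second highest marker stood at 54.7 and 62.2 CPM in the 2 lowest members and at 49.1 and 35.8 CPM in the 2 highest other wells. At the Vtn limit the lowest strong well had 541 CPM and the highest weak well 469 CPM. One well outside the 73 had Vtn at 522 CPM with Rgs5 at 4.92 CPM and no count of the other 4 markers.

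The first comparison asked which further genes differed between the 73 wells and the other wells of the same sets. Ndufa4l2, which encodes a mitochondrial protein related to a subunit of the respiratory chain, rose in the pericyte-carrying wells, as did Atp13a5. Among 10499 genes tested, 3 were past an adjusted p of 0.05 in edgeR's quasi-likelihood test with Benjamini-Hochberg adjustment (0.0286%), with the 6 markers left out and the set as a block. The log2 differences between members and others were 6.80 ± 0.40 (SE) for Ndufa4l2 at adjusted p = 0.0451 and 9.19 ± 0.42 for Atp13a5 at 0.0210 (edgeR, 3 sums per class). Ndufa4l2 had a count in 6 and Atp13a5 in 4 of the 672 other wells, so both entered the test through the pericyte-carrying wells and had to differ, and their p-values are a description. No gene was called lower, and 648 had an unadjusted p under 0.05, 375 of them higher.

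Strong wells held most of these transcripts. Ndufa4l2 stood at 599, 619 and 743 CPM in strong wells, at 249.2, 125.1 and 1.26 in weak wells and at 7.15, 2.26 and 3.45 in the others, so the weak sum of AY_Y3 lay below all 3 sums of the others. Atp13a5 had 323, 940.3 and 281 CPM in strong wells, with 0, 0.0674 and 36.7 in weak and 0.201, 0.924 and 0.385 in other wells, and 1 weak well held 99.3% of its weak counts. In single wells Ndufa4l2 ran from 0 through a median of 442 to 2523 CPM and Atp13a5 from 0 through 295 to 2108 CPM in strong wells, so not every strong well carried them. They reached 50 CPM in 31 and 28 of 41 strong, 12 and 1 of 32 weak and 6 and 2 of 672 other wells. Some genes overlap a gene on the opposite strand, and the strand setting of the counting is unknown, so their reads cannot be told apart. Ndufa4l2 overlaps Shmt2, with means of 33.8 CPM in strong, 6.16 in weak and 49.9 in other wells. In the same order, of the genes below, Cald1 overlaps Gm13861 (37.97, 7.58 and 0.299) and Slc19a1 overlaps Col18a1 (0.914, 44.8 and 35.7). Abcc9, Art3, Notch3, P2ry14 and Slc6a20a also overlap such genes, which had means of at most 9.45 CPM where counted.

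When strong wells alone were set against the others, edgeR's quasi-likelihood test with Benjamini-Hochberg adjustment called 1 gene of 10499 (0.00952%). Unadjusted p lay under 0.05 for 570 genes, 367 of them lower in strong wells. DESeq2 called 230 genes higher (2.19%) and 416 lower, and limma on mean log2(CPM + 1) per well called 1.19% higher and none lower. In 692 genes (6.59%) the 3 strong sums all lay above the 3 sums of the others, and in 1529 (14.6%) all lay below. The count of calls thus differed widely between the tests. The edgeR counts also rest on all 3 sets: leaving out any one set (Young1, Young2 or AY_Y3) left 0 genes called in both comparisons. Shifts common to all classes of a set were taken out by the blocking. The p-values therefore measure only how much a class difference varied among the 3 sets, whose origin is unknown.

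The 34 further pericyte genes listed here were high as a group in strong wells. Their summed level was 8744, 10678 and 8103 CPM in strong wells, 2192, 894 and 598 in weak wells and 331, 427 and 374 in the others. All 34 reached 50 CPM in at least 1 strong well, and 26 in at least 1 weak well. Atp13a5 and Ndufa4l2 are the members of the list that rose in the comparison of all pericyte-carrying wells, where DESeq2 called 29 of the list higher (background 2.59%) and 30 did not overlap (background 6.95%). In the strong comparison edgeR called none of the 32 tested (26 had an unadjusted p under 0.05). DESeq2 and limma each called 27 higher (backgrounds 2.19% and 1.19%). The median log2 difference of the 32 was 9.37, beside -0.30 over all genes tested. Of these 32 genes, 27 were found in under 5% of the other wells and so entered the test through the pericyte-carrying wells, and such genes had to differ. The counts and the median are therefore a description.

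Members of the list are named by the rule stated under processing or, for most, after their values were seen. Rgs4, another regulator of G-protein signalling, had 1671, 1908 and 1595 CPM in strong wells, 408, 96.8 and 215.8 in weak wells and 0.0575, 4.33 and 2.50 in the others. P2ry14, a receptor for UDP-glucose, had 836, 614 and 853 CPM in strong wells and 171.5, 2.09 and 0 in weak wells. Art3, which encodes an ADP-ribosyltransferase family member, had 914, 823 and 529.6 CPM in strong wells and no count in any weak well. Weak wells thus had Rgs4 above the level of the others in all 3 sets, but not P2ry14 or Art3.

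Classical surface markers of pericytes were highest in the strong wells too. Cspg4, which encodes the proteoglycan NG2, had 274, 195.3 and 170.4 CPM in strong wells and reached 50 CPM in 19 of 41; in weak wells it stayed at or below 0.405 CPM in each set. Cd248, which encodes endosialin, had 263, 141.7 and 219.98 CPM in strong wells and no count in the other wells. Anpep, which encodes the peptidase CD13, was sparser at 32.9, 30.6 and 44.2 CPM and reached 50 CPM in 6 strong wells. Mcam, an adhesion molecule shared with endothelium, was at 73.9, 191.7 and 33.3 CPM in strong wells against 8.56, 27.2 and 26.9 in the others. Gper1, an oestrogen receptor of the G-protein-coupled kind, was present in the other wells as well, with 504, 770.0 and 372 CPM in strong wells and 129.4 ± 10.7 (SD, n = 3 sets) in the others.

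**Figure D2:**
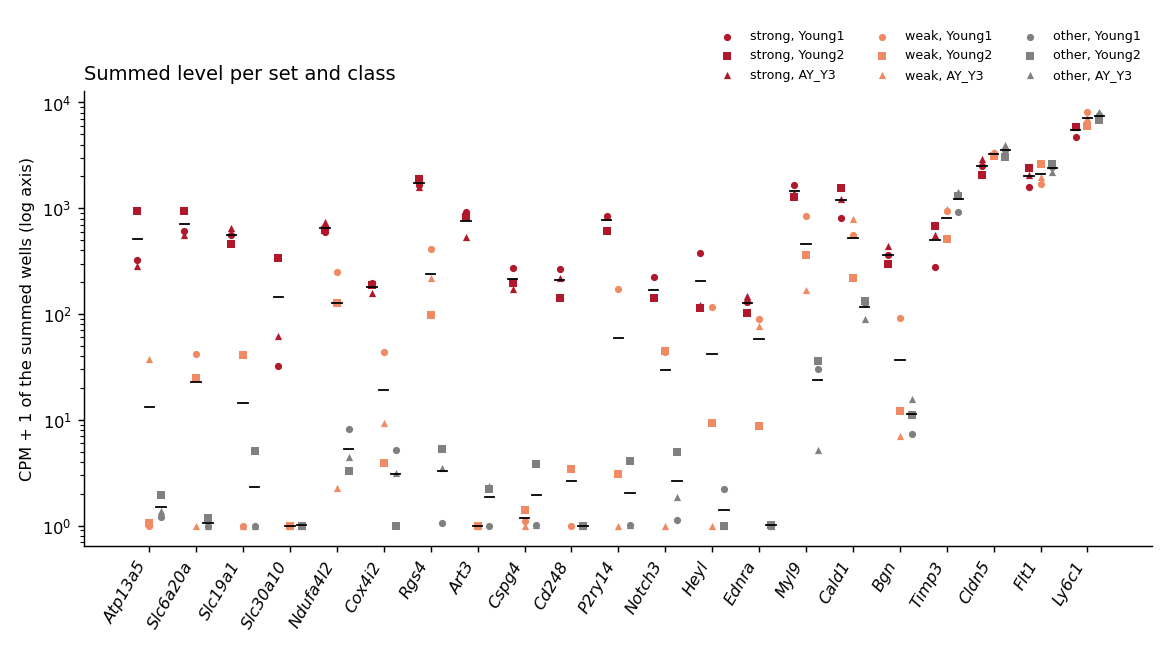
Summed CPM + 1 (log axis) of 21 genes in strong, weak and other wells of each set. Symbols mark the sets and black bars the means of the 3 sets. Most transporter and pericyte genes lie near or above 100 CPM in strong wells and near 0 in the others. Cldn5, Flt1 and Ly6c1 differ far less between classes on this axis, but the strong sums of Cldn5 and Ly6c1 lie below those of the others.

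Pericyte transporters were higher as a group in strong wells than in the others. The 15 listed pericyte transporters summed to 4357, 6487 and 4118 CPM in strong wells, to 773, 427 and 363 in weak wells and to 66.9, 130.9 and 94.9 in the others. Of the 12 tested, edgeR called Atp13a5 higher in all members. In strong wells DESeq2 called 9 higher (background 2.19%) and 1 lower, Slc12a7 (background 3.96%). Of the 12, 9 entered the test through the pericyte-carrying wells, so the higher counts are a description. Slc6a20a, a proline transporter of the SLC6 family, had 605, 950.5 and 559.7 CPM in strong wells, 21.6 ± 20.5 (SD, n = 3 sets) in weak and 0, 0.176 and 0 in other wells. Slc19a1, the reduced folate carrier, had 555, 459 and 649 CPM in strong wells and 0, 39.8 and 0 in weak wells. Slc30a10, a manganese exporter, had 31.2, 338 and 61.1 CPM in strong wells and no count in weak wells. These 3 genes reached 50 CPM in 27, 23 and 12 of the 41 strong wells. Atp1b2, which encodes the β2 subunit of the sodium-potassium pump, had 419, 622 and 365 CPM in strong, 271, 23.7 and 127.2 in weak and 7.54, 13.97 and 2.63 in other wells.

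Astrocytes also express Atp1b2 strongly, so astrocyte markers were read beside it. The 10 astrocyte markers summed to 62.5, 157.4 and 56.1 CPM in strong wells, 433, 652 and 721 in weak wells and 444, 679.8 and 747 in the others. Of the 10 markers, 3 reached 50 CPM in at least 1 strong well and 7 in at least 1 weak well. Aqp4 and Gfap had no count in any of the 73 wells, but 1 weak well of AY_Y3 had an astrocyte sum of 4868 CPM. As a class, strong wells had the highest Atp1b2 and the lowest astrocyte sum. The source of Atp1b2 was not tested.

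Respiratory-chain genes were read for restricted and common isoforms. Of 12 such genes edgeR called none in strong wells (3 higher with unadjusted p below 0.05) and DESeq2 called 3 higher (background 2.19%). Cox4i2 and Ndufa4l2 were found in under 5% of the other wells and entered the test through the pericyte-carrying wells. Cox4i2, the tissue-restricted isoform of cytochrome oxidase subunit 4, had 197.1, 185.7 and 157.9 CPM in strong wells against 42.6, 2.90 and 8.35 in weak and 4.14, 0 and 2.16 in other wells, and Ndufa4l2 is given above. The common counterparts overlapped between strong and other wells: Ndufa4 had 154.96 ± 36.5 CPM (SD, n = 3 sets) in strong, 203.6 ± 83.8 in weak and 192.1 ± 11.7 in other wells. Cox4i1 had 433 ± 59.6, 352 ± 65.7 and 412 ± 32.9. Atp5b, a subunit of ATP synthase, had 1329.8, 1398 and 1138 CPM in strong wells and 838, 751 and 906 in the others, without overlap, but did not pass edgeR's test.

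Contractile and vasoactive genes came next. Of the 19 listed, 17 were tested. In strong wells edgeR called none (10 had an unadjusted p under 0.05) and DESeq2 called 10 higher (background 2.19%). Of the 17, 11 entered the test through the pericyte-carrying wells, so these counts are a description. Myl9, a myosin regulatory light chain, had 1663, 1285 and 1407 CPM in strong wells, 839.6, 363 and 168.98 in weak and 29.4, 34.8 and 4.15 in other wells. Cald1, which encodes the actin-binding caldesmon, had 801, 1540.2 and 1217 CPM in strong, 555, 219.9 and 787 in weak and 124.9, 131.3 and 88.4 in other wells. Both genes separated the 3 classes without overlap, although the weak sum of Cald1 in AY_Y3 came close to the strong sum of Young1. Tpm1, a tropomyosin gene shared with endothelium, had 468 ± 159.7 CPM (SD, n = 3 sets) in strong, 448 ± 311 in weak and 359 ± 41.4 in other wells. Ednra, the endothelin A receptor, had 128.8, 100.8 and 147.4 CPM in strong wells and reached 50 CPM in 10 of 41.

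Arterial smooth muscle cells share several of these genes, so their own markers were examined. The 12 smooth muscle markers summed to 2343, 1691 and 1872 CPM in strong wells, 2056, 1073 and 254.7 in weak wells and 127.9, 224.6 and 76.7 in the others. In strong wells this sum was mostly Myl9, which reached 50 CPM in 33 of 41. Of the 12 markers, 9 reached 50 CPM in at least 1 strong well. Acta2 did so in 1 strong well, Tagln in 1 and Myh11 in 3, and Cnn1 had no count. The highest strong well, of Young1, had a smooth muscle sum of 10639 CPM, with 4362 CPM of Acta2 and 4556 CPM of Myl9. A weak well of Young2 stood apart with a smooth muscle sum of 32387 CPM, of which 15706 CPM were Acta2 and 9381 CPM Myl9, while the next weak well had 6907 CPM. In a comparison chosen after seeing the data, leaving out this well left the counts of calls at 3, 1, 0 and 0. In another setting the 5% of wells highest in smooth muscle markers and the 5% highest in astrocyte markers were left out of each set. This removed 75 wells, among them 22 strong and 7 weak wells. The smooth muscle list holds Myl9 and Mylk, and their part in this was not tested. No gene was then called in the members' or the strong comparison. The log2 differences of the members in that setting were 8.07 for Atp13a5 and 5.72 for Ndufa4l2, beside 9.19 and 6.80 with all wells.

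The 20 matrix genes held higher, overlapping and lower sums in strong wells. Bgn, which encodes the proteoglycan biglycan, had 357, 295 and 434 CPM in strong wells, 89.7, 10.99 and 6.07 in weak and 6.31, 9.997 and 14.9 in other wells. Sparcl1, a matricellular protein also made by endothelium, had 2704, 3929.9 and 3132 CPM in strong wells against 1581, 2078 and 2044 in the others, without overlap. The basement membrane collagen Col4a1 had 348 ± 36.99 CPM in strong, 248.9 ± 32.1 in weak and 341 ± 9.89 in other wells (SD, n = 3 sets), and the ranges of strong and other wells overlapped. Timp3, an inhibitor of matrix metalloproteinases, lay lower in strong wells, at 278, 682 and 553 CPM against 930.3, 1306 and 1431. Over the 20 listed genes edgeR called none in strong wells (3 higher and 1 lower with unadjusted p below 0.05). DESeq2 called 5 higher (Bgn, Itga7, Lama2, Lamb1, Sparcl1; background 2.19%) and 1 lower (Timp3; background 3.96%), and the sums did not overlap for 8 higher (background 6.59%) and 1 lower (background 14.6%). Of the 20, 5 were found in under 5% of the other wells and entered the test through the pericyte-carrying wells, so the higher counts are a description.

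**Figure D3:**
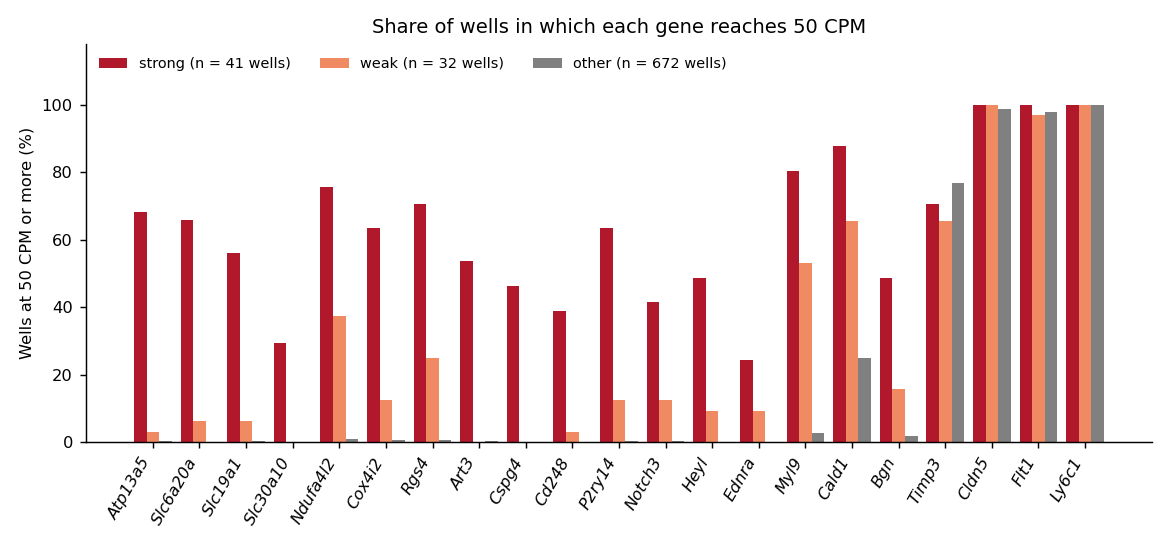
Percentage of wells in which each of 21 genes reaches 50 CPM, in 41 strong, 32 weak and 672 other wells. Cald1 and Myl9 are found in over 50% of weak wells, whereas Slc30a10, Art3 and Cspg4 reach 50 CPM in none of them.

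Ligands and receptors that link the 2 cell types were read on both sides. Pdgfb, the endothelial ligand of PDGFRβ, had 271, 163.7 and 485 CPM in strong, 391, 219.8 and 244.1 in weak and 425, 328 and 315 in other wells, and these ranges overlapped. Tek, the endothelial angiopoietin receptor, had 295 ± 128.5, 401 ± 297 and 339 ± 11.02 CPM (SD, n = 3 sets) and overlapped as well. Pdgfra, the receptor that marks fibroblasts, had no count in strong wells. Notch3, the Notch receptor of mural cells, had 221.9, 140.4 and 144.4 CPM in strong, 42.6, 43.9 and 0 in weak and 0.138, 3.94 and 0.856 in other wells. Heyl, a transcription factor induced by Notch, had 377, 113.7 and 120.3 CPM in strong and 41.1 ± 64.2 (SD, n = 3 sets) in weak wells. Notch1, which endothelial cells express, had 290.0 ± 198.1 CPM in strong against 336 ± 1.97 in other wells (SD, n = 3 sets), with overlap. Of 13 Notch genes 11 were tested in strong wells; edgeR called none, 2 had an unadjusted p under 0.05, and DESeq2 called 2 higher, Notch3 and Heyl (background 2.19%). Both were among the 3 of the 11 found in under 5% of the other wells, which entered the test through the pericyte-carrying wells, so these calls are a description.

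Among 19 genes of TGF-β and BMP signalling 14 were tested. In strong wells edgeR called none (3 lower with unadjusted p below 0.05) and DESeq2 called 4 lower, Acvrl1, Id3, Tgfb1, Tgfbr1 (background 3.96%). The median log2 difference of the 14 was -0.61, and -0.20 when scaled to endothelial genes. Id3, a transcriptional target of BMP receptors, had 1119, 1033 and 1174 CPM in strong wells, 2289, 1607 and 1427 in weak wells and 2007, 1813 and 1829 in the others. Acvrl1, an endothelial receptor of this family, had 283, 375 and 611 CPM in strong wells, 406, 645 and 983 in weak wells and 679, 785 and 804 in the others. The strong sums of both genes lay below those of the other wells. The log2 difference of Id3 was -0.71, and -0.30 with endothelial scaling.

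Endothelial transcripts were present in all 73 wells. The 18 endothelial genes summed to 7617 to 40597 CPM in single strong wells (median 26582), to 17068 to 43129 in weak wells (median 33500.5) and to 8945 to 72729.5 in the others. The strong median was 75.4% and the weak median 95.1% of that of the others. Every one of the 73 wells had counts of Cldn5, Flt1 and Ly6c1, but not of every endothelial gene. Pecam1 had a count in 34 strong and 30 weak wells, and Cdh5 in 29 and 26. All 6 of Pecam1, Cdh5, Cldn5, Flt1, Ly6c1 and Kdr had a count in 22 strong and 21 weak wells. The endothelial sum lay above the 5th percentile of the other wells in 25 strong and 30 weak wells. Cldn5, the main claudin of the barrier, had 2523, 2081 and 2926 CPM in strong wells, 3357, 3098 and 3403 in weak wells and 3571, 3083 and 3961 in the others. Ly6c1 had 4716, 5819 and 5901 CPM in strong wells against 7556, 6888 and 8132. Across the 18 genes none passed edgeR's test in strong wells (7 were lower with unadjusted p below 0.05). DESeq2 called 3 lower (Cldn5, Egfl7, Ly6a; background 3.96%). For 7 genes the strong sums lay below those of the others without overlap (background 14.6%). The median log2 difference was -0.39, beside -0.30 over all genes tested. Scaling each sum to these same endothelial genes moved these medians to 0.02 and 0.10. The log2 differences of Flt1 and Ly6c1 were negative as first scaled and positive, at 0.19 and 0.0088, under endothelial scaling.

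The balance between the 2 cell types varied from well to well. Over the 41 strong wells, the sum of the 34 further pericyte genes was lower where the endothelial sum was higher (Pearson r = -0.80, Spearman rho = -0.73), and higher with the sum of the 6 markers (r = 0.85, rho = 0.84). These are descriptions across wells that share the CPM denominator, which by itself sets such sums against each other. Among the 32 weak wells the 6 markers and the further pericyte genes had r = -0.01 and rho = 0.10. The 18 strong wells with all 6 markers had a median of 14761 CPM of further pericyte genes and 23334 CPM of endothelial genes, against 2534 and 27867.5 CPM in the 23 strong wells with fewer markers. The 25 strong wells with Vtn at 5000 CPM or more had at least 5172 CPM of the further pericyte genes each. The 16 below that level ran from 179.3 to 15326 CPM. Kcnj8 reached 50 CPM in 21 of the former and 2 of the latter. The strong wells thus span a wide range of pericyte content, and the limit of 5000 CPM was chosen after the values were seen.

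**Figure D4:**
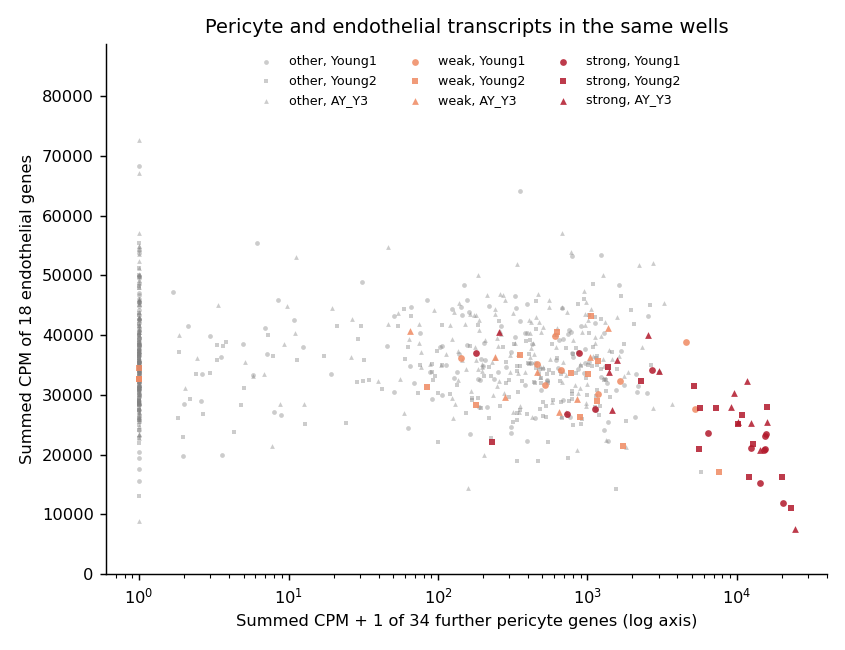
Summed CPM of 18 endothelial genes against summed CPM + 1 of 34 pericyte genes outside the rule (log axis). Each point is a well, coloured by class and shaped by set. Strong wells run from 179.3 to 24331 CPM of pericyte genes, and those richest in them have low endothelial sums.

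Vessel segments were compared because pericytes sit on capillaries. Capillary genes summed to 14386 ± 1087 CPM (SD, n = 3 sets) in strong, 16555 ± 2566 in weak and 16588 ± 381 in other wells. Arterial genes summed to 2249 ± 426, 3155 ± 879 and 3588 ± 604 CPM, and venous genes to 1265 ± 439.8, 1971 ± 1096 and 1750.5 ± 263. The median log2 difference of strong wells was -0.21 over 12 capillary, -1.76 over 14 arterial and -0.84 over 10 venous genes tested, and 0.20, -1.37 and -0.44 when scaled to endothelial genes. Fbln5, a matrix gene of arteries, had no count in strong wells against 46.98, 88.9 and 138.6 CPM in the others. Gja4, a connexin gene of arterial endothelium, had 370.2, 248.9 and 412 CPM in strong and 54.7, 44.3 and 47.3 in other wells. Nr2f2, a venous transcription factor, had 171.4 ± 5.77 against 41.3 ± 22.4 (SD, n = 3 sets). None of these 3 genes passed edgeR's test, and which cell type of the mixed wells they came from was not tested. In the 3 segment lists DESeq2 called 2 arterial, 1 capillary and 1 venous gene lower in strong wells (background 3.96%). It called 1 venous gene higher (background 2.19%), and limma called 1 gene higher in each list (background 1.19%). For 8 of 14 interferon response genes the 3 strong sums lay below all 3 sums of the others (background 14.6%), with edgeR calling none (2 with unadjusted p below 0.05) and DESeq2 calling 1, Ifit3, which has a near-identical copy that could share its reads. The median log2 difference of the 14 was -0.93, and -0.51 when scaled to endothelial genes.

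Markers of further cell types were summed in the same way. The fibroblast list summed to 181.4 ± 159.1 CPM (SD, n = 3 sets) in strong wells, 4.31 ± 4.88 in weak wells and 0.255 ± 0.373 in the others. The strong sum was mostly Slc6a13, a GABA transporter gene, at 0, 112.4 and 230.5 CPM, with Dcn and Col1a1 at 0. Of the list, only Col1a2, a collagen gene, was tested: it had 4.30, 51.3 and 81.7 CPM in strong wells against 0.0230, 0.0113 and 0.00856 in the others, edgeR did not call it (unadjusted p = 0.00767) and DESeq2 called it higher, and it entered the test through the pericyte-carrying wells. Oligodendrocyte markers summed to 126.05 ± 94.4 CPM in strong wells, microglia and macrophage markers to 49.7 ± 76.4 and neuronal markers to 52.5 ± 43.7. In the other wells these 3 sums were 479.8 ± 613, 66.2 ± 8.43 and 121.1 ± 17.1 CPM. Their part in the results was not tested.

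The weak wells held a smaller and narrower set of pericyte transcripts. Against the other wells edgeR's quasi-likelihood test with Benjamini-Hochberg adjustment called 0 of 10499 genes (0%), with 489 at an unadjusted p under 0.05, 68 of them higher. DESeq2 called 70 higher (0.667%) and 553 lower, and limma called none; 360 genes (3.43%) had all 3 weak sums above those of the others. Of the 34 further pericyte genes 32 were tested. DESeq2 called 12 of them higher (background 0.667%) and 1 lower (Enpep, beside the 553 of 10499 over all genes). The sums of 4 lay above those of the others without overlap, Aspn, Ednra, Rarres2 and Rgs4 (background 3.43%). Of the 32, 27 were found in under 5% of the other wells and entered the test through the pericyte-carrying wells, so these counts are a description. Between strong and weak wells edgeR called 0 genes (0%), with 779 at an unadjusted p under 0.05, while DESeq2 called 690 higher and 362 lower in strong wells, and limma 56 and 3. The weak values are carried by few wells: 1 well held 63.3% of the weak Rgs4 counts.

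The position of the wells was read last, as the plate row and column in their names. Of the 32 weak wells 25 (78.1%) shared a row or column with a strong well of the same set, and of the others 547 of 672 (81.4%). Directly beside or diagonal to a strong well were 17 weak wells (53.1%, 95% exact interval 34.7 to 70.9%) and 31.1% of the other wells (27.6 to 34.8%), a share added after the positions had been seen. In the 3 sets 5 of 9, 8 of 15 and 4 of 8 weak wells were adjacent, beside 29.1, 32.3 and 31.7% of the other wells. Strong wells themselves were adjacent to another strong well in 13 of 41 cases (31.7%, 18.1 to 48.1%). No test was made of these shares, and no label states whether wells of 1 set shared a plate.

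**Figure D5:**
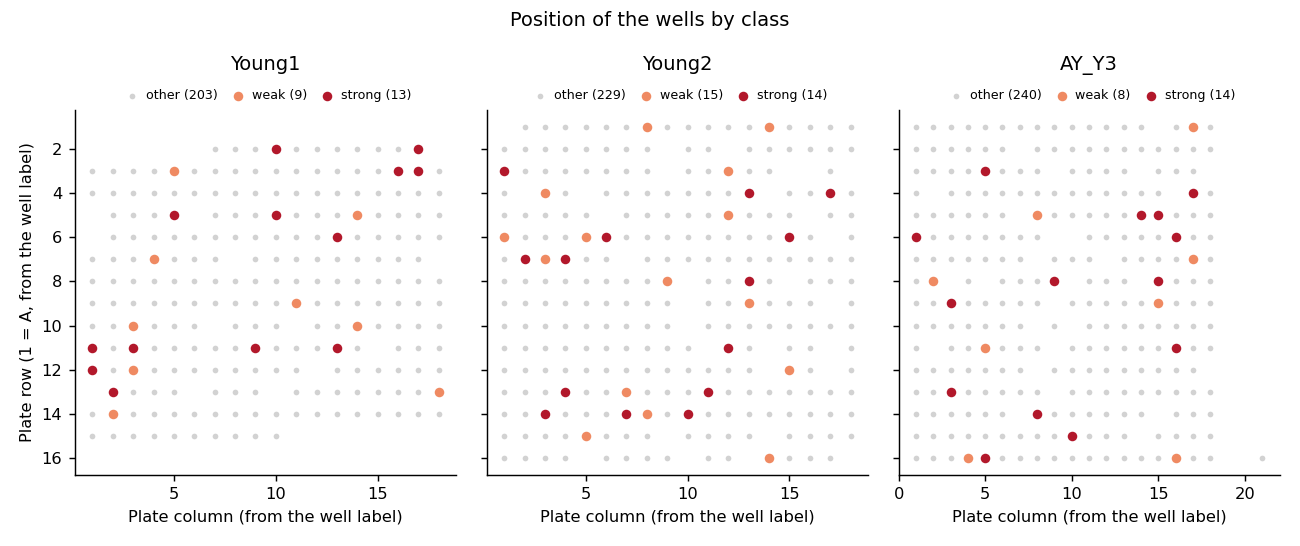
Wells of the 3 sets at the plate column and row given by their names, coloured by class. Strong and weak wells are spread over the plates, and 17 of 32 weak wells touch a strong well at a side or corner.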

How the data were processed

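The authors deposited 1 table of whole-number counts for 20607 genes in 745 wells (225 of Young1, 258 of Young2 and 262 of AY_Y3), used as given. Per the submitters' processing notes, Bowtie 0.12.2 and the builds mm8 and mm10 were used, with no role stated. The sources used here do not give the counter, annotation or strand setting. No doublet caller was run, because mixtures are the subject. Counts were summed per set and class. Genes were kept if edgeR's default filter passed them and 5% or more of the wells of 1 class held a count, and tested with edgeR 4.0.16 (quasi-likelihood, TMM, set as block, R 4.3.3); DESeq2 1.42.0 and limma 3.58.1 were alternatives. The test was first tried on simulated counts. Sums and shares used Python 3.11.15 with pandas 2.3.3 and scipy 1.17.1. Intervals cover counting error only.

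The members and gene lists were chosen with earlier results of these data known. Named genes were those past the threshold in a comparison and, in each list, up to 4 others highest in mean CPM; further ones were chosen after their values were seen. Of 8 promoters looked up, 5 were matched in the RefSeq table. One gene called by edgeR is not reported here.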

Additional observations from a re-analysis of the deposited data

How the results depend on the processing

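The share of the tested genes that was called depended on the test and its settings, and the cause was not tested. For the 73 wells against the others it was 0.0286% (3 genes) with edgeR, 4.51% with DESeq2, 2.55% with limma, 0.37% (33 genes) after thinning to 50000 counts, 0.352% (37 genes) without the set as a replicate block, and 0% without the wells highest in smooth muscle or astrocyte markers. For strong wells 0.00952% (1 gene) became 6.15% with DESeq2, 1.19% with limma, 0.438% (39 genes) after thinning, 0.0101% (2 genes) without the low-count filter, 0.019% (2 genes) with Vtn split at 1000 CPM, and 0% with 3 of 6 markers required or without the wells highest in smooth muscle or astrocyte markers. For weak wells 0% became 5.93% with DESeq2 and 0.0898% (8 genes) after thinning, and 1 gene was called without the filter (0.00503%), at a threshold of 100 CPM (0.00964%), and with endothelial scaling, no replicate block or Vtn split at 1000 CPM (0.00952% each). Between strong and weak wells 0% became 10% with DESeq2, 0.562% with limma and 0.0337% (3 genes) after thinning, and 1 gene (0.00952%) was called without the block and with Vtn split at 200 CPM. Leaving out each set in turn gave 0% to 0% in the members' and the strong comparison. Requiring 3 of 6 markers left 6.58% of wells as members. With the wells of all sets pooled, the median gene number of members exceeded that of the others by 750.5 without thinning. The log2 difference of Atp13a5 in weak wells ran from -3.83 to 5.08 over leaving out each set (the lowest without AY_Y3), was -1.98 with 3 of 6 markers required and reached 6.75 with Vtn split at 1000 CPM; those of Flt1 and Ly6c1 in strong wells turned positive with endothelial scaling (0.19 and 0.0088). In the members' comparison Atp13a5 was past the threshold in 10 of 15 alternatives (log2 differences of 3.65 to 9.91) and Ndufa4l2 in 8.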

Other observations

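Outside the lists, 73 of the 110 genes that both DESeq2 and limma called higher in strong wells, with sums that did not overlap those of the others, belonged to no list, and 42 of them stood at 100 CPM or more. Of the 73, 60 had a count in under 5% of the other wells and so were tested through the pericyte-carrying wells, where they had to differ, and the counts are a description. The following were named after their values were seen, and none passed edgeR's test. Gatm, the first enzyme of creatine synthesis, had 1783, 2462 and 2179 CPM in strong wells against 1052, 1135 and 1154 in the others. Mfge8, a secreted glycoprotein that binds phosphatidylserine, had 1442, 1684 and 1387 CPM against 257.4, 228.7 and 308, and its weak sums of 361, 172.99 and 22.3 CPM overlapped those of the others. Sod3, the extracellular superoxide dismutase, had 778, 821 and 468 CPM in strong wells and stayed at or below 4.05 CPM in the others. Nbl1, a secreted BMP antagonist, had 633, 681 and 495 CPM against 17.6, 32.3 and 10.5. Il34, a ligand of the microglial receptor Csf1r, had 275, 299 and 183.9 CPM in strong wells and 3.42, 1.49 and 0 in the others.

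The other wells with Rgs5 at 50 CPM or more, 18.2% of the 672, carried few other pericyte transcripts. Vtn had a count in 4 of them, Higd1b in 3, Ndufa4l2 in 4 and Atp13a5 in 1. The median sum of the 34 further pericyte genes was 115.7 CPM, beside 100.4 CPM in the 550 wells with less Rgs5 and 653 CPM in weak wells. Rgs5 itself had a median of 833 CPM in these wells and reached 9644 CPM. Their median endothelial sum was 36830 CPM, against 35069 CPM in the 550 wells. Directly beside or diagonal to a strong well were 29.5% of them and 31.5% of the 550.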
